A study of Mus musculus with 6 samples.

Results

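Macrophage polarization markers are genes whose transcripts are used to place macrophages along a range of activation states. The markers described here are 10 genes chosen by name: Nos2, Arg1, Mrc1, Cd163, Retnla, Chil3, Spp1, Trem2, Gpnmb and Apoe. They were read from the 54532 genes of the table, of which 30939 had at least 1 count in a tumor. Of the 10 markers, 9 had a count and 8 passed the filter on low values (a mean FPKM of at least 0.5 over the 6 tumors), which 16426 genes passed in all.

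RNA-seq was performed on whole tumors from mice treated with azoxymethane (AOM), a carcinogen, and with 3 cycles of dextran sulfate sodium (DSS), which injures the colonic epithelium. The control group was 3 tumors of Tmem173 fl/fl mice, which carry loxP sites around Tmem173, the gene encoding the DNA-sensing adaptor STING. The knockout group was 3 tumors of Tmem173 fl/fl mice that also carry Cre-ert2 under the lysozyme M (Lyz2) promoter, called Tmem173iΔmye. Both groups were given tamoxifen after the AOM/DSS cycles, when tumors had formed, so the groups share the carcinogen, the colitis and the tamoxifen, and the Cre allele is the difference by design. The study's mice were on the C57BL/6N background, and the methods give ages for the adult mice of other experiments but none separately for these groups. Lyz2-driven Cre acts mainly in macrophages, monocytes and neutrophils, whereas every cell of the tumor contributed RNA. In whole-tumor RNA, fewer macrophages and less RNA per macrophage cannot be told apart. In the figures the control tumors are AOM_WT_1 to AOM_WT_3 and the Tmem173iΔmye tumors are AOM_CRE_1 to AOM_CRE_3.

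Macrophages exposed to interferon gamma and bacterial products turn on Nos2, the inducible nitric oxide synthase, while those exposed to interleukin-4 or interleukin-13 turn on Arg1, Mrc1, Chil3 and Retnla through the transcription factor STAT6. Both enzymes consume arginine, Nos2 to make nitric oxide and Arg1 to make ornithine and urea. A further state, seen around lipid-rich debris and in tumors, carries the lipid receptor Trem2, the membrane glycoprotein Gpnmb, the lipid carrier Apoe and the secreted phosphoprotein Spp1 (osteopontin). Cd163, the scavenger receptor for haemoglobin and haptoglobin, marks macrophages resident in tissue. In the colon, Nos2 and Spp1 are also made by epithelial and stromal cells, and Apoe by several cell types.

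The tumors held between 15329810 and 16533732 counted reads. Pan-macrophage genes were present in every tumor: all 18 of the list (Adgre1, Csf1r, Cd68, the C1q chains and others) passed the filter. The mean over these genes, as log2(CPM + 1), came to 5.02 ± 0.22 in the 3 Tmem173 fl/fl tumors and to 5.26 ± 0.31 in the 3 Tmem173iΔmye tumors (SD; exact two-sided permutation p = 0.40, where 3 tumors against 3 cannot give less than 0.1). Markers of colonic epithelium had a summed level of 8901 to 11022 CPM, against 1095 to 3759 CPM for the pan-macrophage genes. Lyz2, whose promoter drives the Cre, was at 163 to 410 CPM in Tmem173 fl/fl and 163 to 317 CPM in Tmem173iΔmye tumors. Tmem173 itself had 1705 to 2911 counts in the control tumors and 1953 to 2291 in the Tmem173iΔmye tumors, so its level in these whole tumors did not separate the genotypes. Tmem173iΔmye tumor 1 stood apart from the other tumors by its high interferon-induced genes, and Y-linked reads (2655 to 3547) were found in Tmem173 fl/fl tumor 1 and Tmem173iΔmye tumors 1 and 2, against 0 to 2 in the other 3 tumors. The sexes of the mice were therefore unevenly split, with Y-linked reads in 1 of 3 control and 2 of 3 Tmem173iΔmye tumors. Some results are therefore also given without a single tumor. Nothing in the labels states that each tumor came from a mouse of its own, so p-values measure the spread between these samples.

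Promoter sequence of 8 of the 10 markers was found in the RefSeq table of GRCm38.p6. Windows are shown for Retnla, which had no read in any tumor, and for Chil3 beside its paralog Chil4, because reads of these paralogs are hard to separate. Each runs 5′ to 3′ on the strand of the gene and ends at the base before the gene as annotated in the deposited table. Capitals in Retnla mark a STAT6-type motif, TTC and GAA parted by any 4 bases, and capitals in the other windows mark a GAS-type motif, TTCNNNGAA.
Retnla (chr16:48842359-48842550, plus strand): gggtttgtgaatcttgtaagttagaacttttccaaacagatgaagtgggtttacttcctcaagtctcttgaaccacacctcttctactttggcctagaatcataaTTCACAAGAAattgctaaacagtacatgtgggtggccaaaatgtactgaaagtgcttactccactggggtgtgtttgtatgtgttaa
Chil3 (chr3:106167565-106167814, minus strand): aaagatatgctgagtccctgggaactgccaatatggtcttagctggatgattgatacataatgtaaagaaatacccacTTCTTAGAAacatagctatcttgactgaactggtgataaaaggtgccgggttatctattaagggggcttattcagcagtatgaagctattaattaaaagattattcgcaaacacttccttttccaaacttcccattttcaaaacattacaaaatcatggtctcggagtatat
Chil4 (chr3:106219508-106219729, minus strand): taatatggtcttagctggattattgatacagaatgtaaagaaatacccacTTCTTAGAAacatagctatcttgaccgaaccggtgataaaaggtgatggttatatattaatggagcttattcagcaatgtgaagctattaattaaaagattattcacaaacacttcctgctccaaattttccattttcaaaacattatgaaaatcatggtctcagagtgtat

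The Chil3 and Chil4 windows were alike: 201 of 223 aligned positions (90.1%) were identical over the last 222 bases, and the GAS-type motif ended 163 bases before the gene in both. Both strands of the 250 bases before each RefSeq start were searched, and 8 markers had such a window. The STAT6-type motif was in the window of Retnla alone among the 8, and in 5.85% of all 32851 promoters. The GAS-type motif was in that of Chil3 alone, and in 7.02% of all promoters. Spp1 held an ISRE-type motif (GAAA, any 2 bases, GAAA; 2.98% of all promoters), the form bound by interferon-regulated factors. Trem2 held an AP-1-type motif (TGANTCA; 6.75%). A kappaB-type motif (GGG and CC parted by any 5 bases) was in the windows of Mrc1, Cd163, Chil3 and Apoe, and in 45.8% of all promoters, and no marker window held the E-box CACGTG (6.02%). These matches describe the letters only.

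The markers differed widely in level. FPKM divides by the counted length of the gene. It compares levels of different genes only as far as that length matches the transcripts present, which was not checked. The counted length was 4946 bases for Trem2 and 1632 for Chil3. In CPM, Trem2 averaged 8.09 in Tmem173 fl/fl and 8.52 in Tmem173iΔmye tumors, above Chil3 at 4.58 and 1.90. Mean FPKM over the 6 tumors was 301 ± 113 (SD) for Apoe, 101 ± 53.9 for Spp1, 40.3 ± 29.7 for Nos2 and 19.8 ± 2.19 for Arg1. It was 4.14 ± 0.34 for Mrc1, 2.0 ± 0.71 for Gpnmb, 1.97 ± 2.30 for Chil3 and 1.67 ± 0.58 for Trem2. Cd163 had a mean FPKM of 0.037, and Retnla had none. Neighbours in this order are given as a description, since the order was set by the same tumors, with the difference taken within each tumor as log2(FPKM + 1). Nos2 was above Arg1, Arg1 above Mrc1 and Mrc1 above Gpnmb in 6 of 6 tumors, with mean differences of 0.78 ± 0.71, 2.01 ± 0.20 and 0.80 ± 0.30 (SD). Apoe was above Spp1 (1.63 ± 1.32), and Spp1 above Nos2 (1.34 ± 1.03), in 5 of 6 tumors. The differences of the last 3 markers were smaller than their spread: Gpnmb was above Chil3 in 4 of 6 tumors (0.26 ± 0.76), and Chil3 above Trem2 in 3 of 6 (-0.09 ± 0.82).

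**Figure D1:**
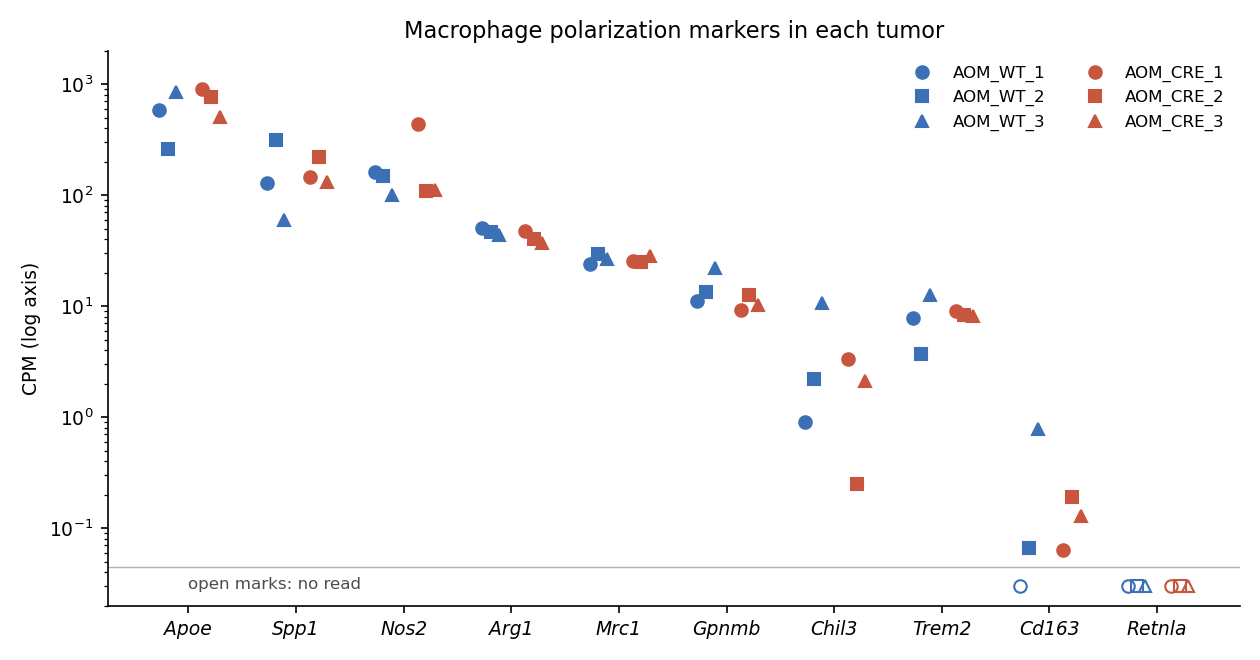
CPM of each of the 10 markers (log axis) in each tumor, ordered by mean FPKM; blue marks are the Tmem173 fl/fl tumors, red marks the Tmem173iΔmye tumors, the shape gives the replicate, and open marks below the line are tumors with no read. Nos2 stands out in AOM_CRE_1 at 442 CPM, Chil3 spreads from 0.25 to 10.6 CPM, and Mrc1 and Arg1 are close to level.

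In CPM, no marker separated the groups. None of the 8 tested passed the study's limits (a log2 fold change of 1 or more in size, and an unadjusted p of 0.05 or less), which 349 genes (2.12%) passed in all, 207 higher (1.26%) and 142 lower (0.864%) in Tmem173iΔmye tumors. The test was edgeR's quasi-likelihood test on the counts, fitted over all 16426 genes with Benjamini-Hochberg adjustment, and fold changes below are Tmem173iΔmye over Tmem173 fl/fl. No gene had an adjusted p under 0.05 in edgeR (0% of those tested, smallest adjusted p 0.742, with 1008 genes at an unadjusted p under 0.05), and 28 genes had with DESeq2, none of them a marker. In all 8 tested markers the CPM of the groups overlapped, whereas the groups did not overlap in 12.5% of all tested genes. Of the 8, 4 had a log2 fold change above 0 and 4 below, with a median of -0.01, and 49.4% of all tested genes were above 0. With 3 tumors a group the intervals are wide, so a p that misses the limit does not show that a marker was the same in both genotypes.

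Nos2, the enzyme of classical activation, was high in a single tumor. Nos2, on chromosome 11 (GRCm38, 78920787 to 78960254, plus strand), had 163, 150 and 99.5 CPM in Tmem173 fl/fl tumors 1, 2 and 3, and 442, 108 and 111 CPM in Tmem173iΔmye tumors 1, 2 and 3. Tmem173iΔmye tumor 1 had 2.72 times the next highest level, and the other 5 tumors lay within a 1.63-fold range in which the groups overlapped. The log2 fold change was 0.68 (SE 0.54, 95% interval -0.56 to 1.93, adjusted p = 0.770 from edgeR). Without Tmem173iΔmye tumor 1 it was -0.33.

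Other genes were high in the same tumor. Summed neutrophil markers were 463 CPM in Tmem173iΔmye tumor 1 and 144 to 274 CPM in the other 5 tumors. S100a8 and S100a9 made up 117 and 138 CPM of that sum in Tmem173iΔmye tumor 1. Of the tested neutrophil genes, these and Csf3r, Cxcr2 and Retnlg were highest in that tumor. Ly6g, Mmp9 and Ltf were not, with Ltf at 50.8 CPM there against 174 CPM in Tmem173 fl/fl tumor 2. Summed pan-macrophage genes were 3759 CPM in Tmem173iΔmye tumor 1 against 1095 to 1791 CPM in the other 5 tumors. Summed genes of inflamed epithelium (Duox2, Lcn2, Reg3g and others) were 2001 CPM there, inside the 956 to 2063 CPM of the other 5 tumors. The genes of this list were split. Saa3 (287 CPM against 31.2 to 64.6 CPM in the other 5 tumors), Nox1, Duoxa2 and Lcn2 were highest in Tmem173iΔmye tumor 1. Duox2, Saa1, Reg3b and Reg3g were each higher in another tumor. Cd74, the invariant chain of MHC class II, made up 2649 CPM of the pan-macrophage sum there, against 356 to 748 CPM in the other 5 tumors. Most of the excess of that sum was therefore Cd74. Ifng, the gene of interferon gamma, had 50 counts in that tumor and 0 to 3 in the others, below the filter. The part of these in the Nos2 level was not tested.

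Arg1, the enzyme that competes with Nos2 for arginine, varied little. Arg1, on chromosome 10 (24915221 to 24927484, minus strand), had 50.6, 46.8 and 43.8 CPM in Tmem173 fl/fl tumors and 47.7, 40.2 and 37.4 CPM in Tmem173iΔmye tumors. The highest tumor had 1.35 times the level of the lowest, and Tmem173iΔmye tumor 1 lay inside the range of the controls. Between the groups the log2 fold change was -0.17 (SE 0.14, 95% interval -0.51 to 0.16, adjusted p = 0.780 from edgeR), an interval narrower than 2-fold in either direction.

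The balance of the enzymes was taken within each tumor as the log2 ratio of Nos2 to Arg1 (CPM + 1), which hardly depends on library scaling. It was 1.67, 1.66 and 1.17 in Tmem173 fl/fl tumors and 3.18, 1.4 and 1.55 in Tmem173iΔmye tumors. Nos2 exceeded Arg1 in CPM in every tumor, and Tmem173iΔmye tumor 1 alone stood far above the rest. The means were 1.5 ± 0.29 and 2.04 ± 0.99 (SD, n = 3 each), a difference of 0.55 that was within the spread (exact two-sided permutation p = 0.60), and without Tmem173iΔmye tumor 1 the difference was -0.02. Of 13 tested genes of arginine and polyamine metabolism, none passed both limits, against 2.12% of all tested genes. In this list 10 were above 0 and 3 below, with a median log2 fold change of 0.24 (0.06 without Tmem173iΔmye tumor 1). Those with the lowest p were Azin1, which protects ornithine decarboxylase from degradation (0.24, SE 0.13, adjusted p = 0.742 from edgeR), and Srm, spermidine synthase (0.30, SE 0.17, adjusted p = 0.742).

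Mrc1, the mannose receptor, varied least between tumors of the 8 tested markers. Mrc1, on chromosome 2 (14229392 to 14332057, plus strand), had 24.1, 29.5 and 26.6 CPM in Tmem173 fl/fl and 25.7, 25.1 and 28.1 CPM in Tmem173iΔmye tumors. The Tmem173iΔmye tumors all lay inside the range of the controls, and the whole range was 1.23-fold. The log2 fold change was -0.03 (SE 0.15, 95% interval -0.37 to 0.32, adjusted p = 0.971 from edgeR). Its paralog Mrc2, the collagen-binding endocytic receptor of fibroblasts, was 13.6, 14.8 and 12.0 CPM in Tmem173 fl/fl and 27.3, 25.5 and 19.0 CPM in Tmem173iΔmye tumors. The Mrc2 levels did not overlap, as in 12.5% of all tested genes (log2 fold change 0.83, SE 0.19, adjusted p = 0.742 from edgeR). Its fold fell short of the limit, and it was named for a low p in these data. Summed fibroblast markers were 1748 to 2218 CPM in Tmem173 fl/fl and 1810 to 2666 CPM in Tmem173iΔmye tumors.

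Cd163 and Retnla were at or near the floor. Cd163 (chromosome 6, 124304656 to 124330527, plus strand) had 0, 1 and 13 counts in Tmem173 fl/fl tumors and 1, 3 and 2 counts in Tmem173iΔmye tumors. Tmem173 fl/fl tumor 3 was alone above 3 counts, the number that a count of 0 allows, so no fold is given. Retnla (chromosome 16, 48842551 to 48844461, plus strand), the secreted resistin-like molecule alpha induced by interleukin-4 and interleukin-13, had 0 counts in 6 of 6 tumors, which allows a level of up to 0.18 to 0.20 CPM for counting error only. The interleukin-13 gene itself had 0 to 2 counts in a tumor, and the interleukin-4 gene, Il4, had 0.69 to 1.67 CPM, with groups that overlapped.

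Retnla's relatives were read. Retnlb, a goblet cell product, was 4.16, 0.67 and 0.72 CPM in Tmem173 fl/fl and 26.6, 2.90 and 2.04 CPM in Tmem173iΔmye tumors. Retnlg, a neutrophil product, was 4.29, 2.87 and 7.56 CPM in Tmem173 fl/fl and 18.7, 1.64 and 2.74 CPM in Tmem173iΔmye tumors. For both, Tmem173iΔmye tumor 1 was highest and the groups overlapped (Retnlb log2 fold change 2.50, SE 1.13, adjusted p = 0.742 from edgeR, and 0.42 without that tumor; Retnlg 0.64, SE 0.86, adjusted p = 0.859, and -1.17 without it).

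Chil3, the chitinase-like protein Ym1 of alternatively activated macrophages and of neutrophils, varied most of the 8. Chil3, on chromosome 3 (106147554 to 106167564, minus strand), had 0.91, 2.20 and 10.6 CPM in Tmem173 fl/fl and 3.35, 0.25 and 2.10 CPM in Tmem173iΔmye tumors. The highest and the lowest tumor were 42.2-fold apart, from 177 counts down to 4, and 4 tumors of both groups lay between them. Between the groups the log2 fold change was -1.27 (SE 1.01, 95% interval -3.62 to 1.08, adjusted p = 0.770 from edgeR), and without Tmem173 fl/fl tumor 3 it was 0.29. Neutrophil markers did not share an order over the control tumors: S100a8 was 46.9, 8.93 and 27.2 CPM in tumors 1, 2 and 3, while Ltf was 21.7, 174 and 11.4 CPM. Their part in the Chil3 level was not tested.

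Chil3 counts are uncertain because of Chil4 (Ym2). Of the 1629 distinct stretches of 50 bases in the Chil3 transcripts, 438 (26.9%) also occurred in transcripts of Chil4 or Gm6522, and the longest transcripts of Chil3 and Chil4 were identical at 94.3% of 1540 aligned positions. Chil4 had 2, 25 and 0 counts in Tmem173 fl/fl and 0, 4 and 7 counts in Tmem173iΔmye tumors. In Tmem173 fl/fl tumor 2, with 33 Chil3 counts, the Chil4 count was of the same order, while in the tumor with the most Chil3 reads it was 0. For Spp1, 11.6% of such stretches were shared with the transcript Gm42793, for Cd163 4 of 5507 were shared, and the other 7 markers shared none.

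**Figure D2:**
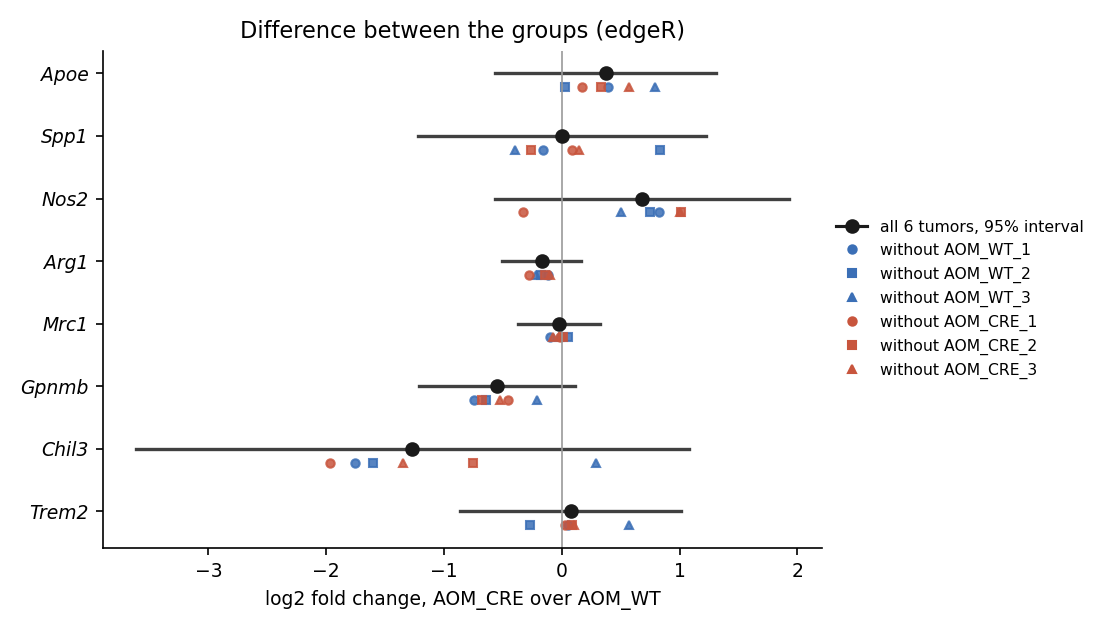
log2 fold change of Tmem173iΔmye over Tmem173 fl/fl for the 8 tested markers (edgeR): black points and lines are the estimate and its 95% interval over all 6 tumors, and the small coloured marks are the estimates with the named tumor left out. Every interval crosses 0, Nos2 moves to -0.33 without AOM_CRE_1, and Chil3 to 0.29 without AOM_WT_3.

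Spp1, osteopontin, a secreted ligand of CD44 and integrins, was the second most abundant marker by mean FPKM. Spp1, on chromosome 5 (104435118 to 104441050, plus strand), had 129, 313 and 59.8 CPM in Tmem173 fl/fl and 147, 223 and 132 CPM in Tmem173iΔmye tumors. The controls held both the highest and the lowest tumor, 5.24-fold apart, and the Tmem173iΔmye tumors lay between them. The log2 fold change was 0.00 (SE 0.53, 95% interval -1.22 to 1.22, adjusted p = 1.0 from edgeR). Group means were 167 ± 131 and 167 ± 48.7 CPM (SD, n = 3 each).

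Trem2, a receptor for lipids and lipoproteins that signals through Tyrobp, had the lowest mean FPKM of the 8 tested markers, but not the lowest CPM. Trem2, on chromosome 17 (48346401 to 48354147, plus strand), had 7.87, 3.67 and 12.7 CPM in Tmem173 fl/fl and 8.97, 8.38 and 8.21 CPM in Tmem173iΔmye tumors. The knockout tumors were close together (8.52 ± 0.40 CPM, SD, n = 3) inside the range of the controls (8.09 ± 4.53 CPM). Between the groups the log2 fold change was 0.07 (SE 0.41, 95% interval -0.87 to 1.02, adjusted p = 0.970 from edgeR). Tyrobp, its signalling adaptor, was 22.6, 9.27 and 18.7 CPM in Tmem173 fl/fl and 39.1, 21.9 and 14.1 CPM in Tmem173iΔmye tumors, with overlapping groups (0.57, SE 0.43, adjusted p = 0.766 from edgeR).

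Gpnmb, a membrane glycoprotein of lysosome-rich macrophages, had the lowest p of the markers, though not past either limit. Gpnmb, on chromosome 6 (49036546 to 49070929, plus strand), had 11.1, 13.5 and 22.1 CPM in Tmem173 fl/fl and 9.15, 12.5 and 10.3 CPM in Tmem173iΔmye tumors. Tmem173 fl/fl tumor 3 was highest, 1.63 times the next, and Tmem173iΔmye tumor 2 lay above Tmem173 fl/fl tumor 1. The log2 fold change was -0.55 (SE 0.28, 95% interval -1.21 to 0.11, adjusted p = 0.742 from edgeR), and without Tmem173 fl/fl tumor 3 it was -0.21.

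Apoe, the lipid carrier, was the most abundant marker. Apoe, on chromosome 7 (19696109 to 19699188, minus strand), had 584, 262 and 848 CPM in Tmem173 fl/fl and 911, 770 and 510 CPM in Tmem173iΔmye tumors. Tmem173 fl/fl tumor 2 was lowest, and the other 5 tumors of both groups were interleaved. Between the groups the log2 fold change was 0.37 (SE 0.41, 95% interval -0.57 to 1.31, adjusted p = 0.825 from edgeR), and without Tmem173 fl/fl tumor 2 it was 0.03. That tumor also had the lowest Trem2 and the highest Spp1 and Mrc1.

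Tmem173 fl/fl tumor 3 had the highest level of 3 of the 8 tested markers (Chil3, Trem2 and Gpnmb) and the lowest of 2 (Spp1 and Nos2). Tmem173iΔmye tumors 2 and 3 had the highest level of none. Lyve1, a receptor of resident macrophages and of lymphatic vessels, was also highest in Tmem173 fl/fl tumor 3 (23.5 CPM against 3.40 to 9.60 CPM in the other 5), as were the counts of Reln, a marker of lymphatic endothelium (218 against 24 to 49). Other genes of the lymphatic list were not: Prox1 was 335 CPM there against 218 to 604 CPM in the other 5 tumors, and Ccl21a was lowest there at 0.18 CPM. In that tumor Prox1 made up most of the lymphatic list sum of 373 CPM, while the blood endothelial list summed to 91.0 CPM. The cell source of Prox1 was not tested, so it may not stand for lymphatic vessels. The part of lymphatic vessels and resident macrophages in the marker levels was not tested.

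The markers were also set against general macrophage genes of the same tumor. The mean log2(CPM + 1) of the 18 pan-macrophage genes was taken from the log2(CPM + 1) of each marker. For Arg1 this relative level was 0.46, 0.79 and 0.42 in Tmem173 fl/fl and 0.08, 0.02 and 0.35 in Tmem173iΔmye tumors. These values did not overlap, with means of 0.56 ± 0.20 and 0.15 ± 0.17 (SD, n = 3 each) and a difference of -0.41 (exact two-sided permutation p = 0.10, the smallest possible, adjusted p = 0.80 over the 8 markers). The groups likewise did not overlap in 5.35% of all tested genes on this measure. Relative to Csf1r alone the difference was -0.18 (exact p = 0.70). The relative level also moves with its reference, which includes Cd74. The reference mean was 5.02 in Tmem173 fl/fl and 5.26 in Tmem173iΔmye tumors, while the log2 fold change of Arg1 itself was -0.17.

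The other 7 markers overlapped on this measure. Gpnmb differed by -0.70 (exact p = 0.30), Chil3 by -0.93 (exact p = 0.40) and Mrc1 by -0.26 (exact p = 0.50). For Apoe, Nos2, Spp1 and Trem2 the differences were 0.25, 0.14, 0.04 and -0.04, with exact p between 0.70 and 1.0. None of the 8 passed after adjustment.

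**Figure D3:**
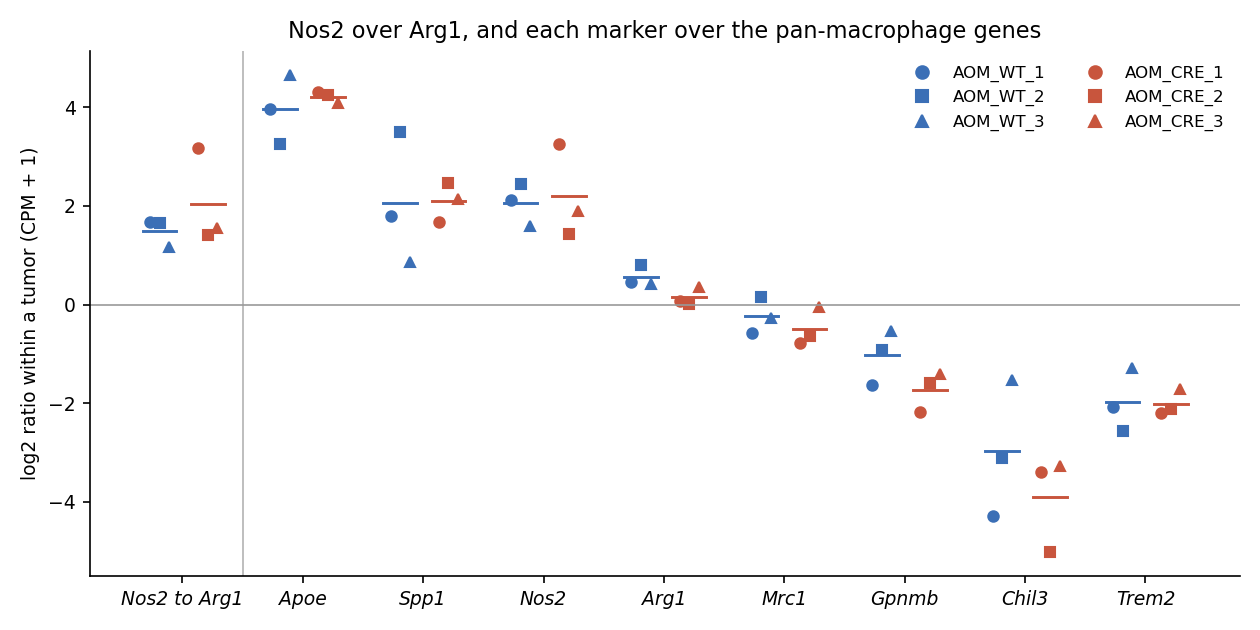
Log2 ratios within each tumor (CPM + 1): on the left Nos2 over Arg1, and to its right each tested marker over the mean of the 18 pan-macrophage genes; points are tumors and bars are group means. Arg1 is the marker whose groups do not overlap, at 0.42 to 0.79 in the controls and 0.02 to 0.35 in the Tmem173iΔmye tumors, and the Nos2 to Arg1 ratio is highest in AOM_CRE_1 at 3.18.

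Other genes of the same states were read from lists. Of all tested genes, 1.26% passed both limits as higher and 2.12% in either direction. Calls in each list are to be read beside these shares. Of 15 tested genes of classical activation, all 15 were above 0, against 49.4% of all tested genes. The median log2 fold change was 0.52. In this list 4 passed both limits as higher: the chemokine genes Cxcl9 and Cxcl10, the tryptophan-degrading enzyme Ido1 and the cytokine Il1b. Without Tmem173iΔmye tumor 1 the median was 0.01. Cxcl9 was 13.8, 7.73 and 10.3 CPM in Tmem173 fl/fl and 226, 11.2 and 19.5 CPM in Tmem173iΔmye tumors. Its groups overlapped (log2 fold change 3.01, SE 1.06, adjusted p = 0.742 from edgeR), and without Tmem173iΔmye tumor 1 it was 0.53. Il1b was 20.8, 18.7 and 16.6 CPM in Tmem173 fl/fl and 110, 32.6 and 22.4 CPM in Tmem173iΔmye tumors. Its groups did not overlap, as in 12.5% of all tested genes. The log2 fold change of Il1b was 1.56 (SE 0.54, adjusted p = 0.742 from edgeR), and without that tumor it was 0.56. Cxcl10 and Ido1 had log2 fold changes of 2.50 and 3.57, and 0.48 and 0.01 without that tumor.

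Of 15 tested genes of alternative activation, none passed both limits, 11 were above 0 and 4 below, with a median of 0.36 (0.23 without Tmem173iΔmye tumor 1). Those with the lowest p were Tgm2, transglutaminase 2 (0.78, SE 0.30, adjusted p = 0.742 from edgeR), and Ccl22, a chemokine of macrophages and dendritic cells (1.28, SE 0.55, adjusted p = 0.742). Clec10a, Il10, Cd209a, Cd200r1 and Pdcd1lg2 of that list were below the filter.

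Of 21 tested genes of lipid-associated macrophages, none passed both limits, 15 were above 0 and 6 below, with a median of 0.09. The cholesterol exporters Abcg1 and Abca1 had the lowest p. Abcg1 was 38.6, 65.5 and 60.7 CPM in Tmem173 fl/fl and 33.1, 31.4 and 36.9 CPM in Tmem173iΔmye tumors. Abca1 was 117, 138 and 197 CPM in Tmem173 fl/fl and 79.6, 106 and 103 CPM in Tmem173iΔmye tumors. Neither overlapped between the groups, as in 12.5% of all tested genes, and naming genes by the lowest p favors such separation. Abcg1 had -0.70 (SE 0.21) and Abca1 -0.65 (SE 0.22), with adjusted p = 0.742 from edgeR for both. Both fell short of the fold limit. Without Tmem173iΔmye tumor 1 they were -0.69 and -0.53. Abca1 was also among the genes whose profile was nearest to that of Gpnmb.

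Of 9 tested genes of resident macrophages, none passed both limits, 7 were above 0 and 2 below, with a median of 0.13 (-0.12 without Tmem173iΔmye tumor 2 and -0.03 without Tmem173 fl/fl tumor 2). Igf1, a growth factor, had 0.32 (SE 0.18) and Colec12, a scavenger receptor, had 0.42 (SE 0.23), with adjusted p = 0.742 from edgeR for both. Cd209f and Cd209g of this list had no count in any tumor, and Vsig4 had 0 or 1.

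Of 10 genes of cytokines that polarize macrophages, 5 passed the filter (Csf1, Il33, Il34, Tgfb1 and Il4), with 2 above 0 and 3 below and none past both limits. Il34, a ligand of the Csf1 receptor, was 12.9, 7.80 and 9.78 CPM in Tmem173 fl/fl and 12.2, 14.9 and 16.3 CPM in Tmem173iΔmye tumors. These overlapped (0.51, SE 0.24, adjusted p = 0.742 from edgeR). The alarmin Il33 had 0.53 (SE 0.46, adjusted p = 0.786 from edgeR). Of 18 receptors and signal transducers, none passed both limits, 11 were above 0 and 7 below, with a median of 0.03. Csf2rb is the shared beta chain of the receptors of GM-CSF, interleukin-3 and interleukin-5. It was 31.8, 29.5 and 32.2 CPM in Tmem173 fl/fl and 58.5, 36.2 and 45.8 CPM in Tmem173iΔmye tumors. These did not overlap, as in 12.5% of all tested genes (0.59, SE 0.19, adjusted p = 0.742 from edgeR). Il2rg, the common gamma chain, had 0.89 (SE 0.30, adjusted p = 0.742 from edgeR).

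Receptors and partners of the marker proteins, such as Cd44 and integrins for Spp1 and Lrp1 for Apoe, showed 10 of 18 above 0 and 8 below, none past both limits, and a median of 0.03. Vldlr, a receptor of Apoe-containing lipoproteins, was 52.6, 37.2 and 38.9 CPM in Tmem173 fl/fl and 30.9, 28.0 and 27.9 CPM in Tmem173iΔmye tumors. Its groups did not overlap, as in 12.5% of all tested genes (-0.57, SE 0.17, adjusted p = 0.742 from edgeR). Hp, haptoglobin, the ligand taken up by Cd163 with haemoglobin, was 211 CPM in Tmem173iΔmye tumor 1 and 33.0 to 74.2 CPM in the other 5 tumors (1.04, SE 0.56, adjusted p = 0.742 from edgeR, and 0.08 without that tumor). Of 22 paralogs and family members of the markers, 9 passed the filter, 6 above 0 and 3 below, none past both limits, with a median of 0.56 (-0.12 without Tmem173iΔmye tumor 1).

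**Figure D4:**
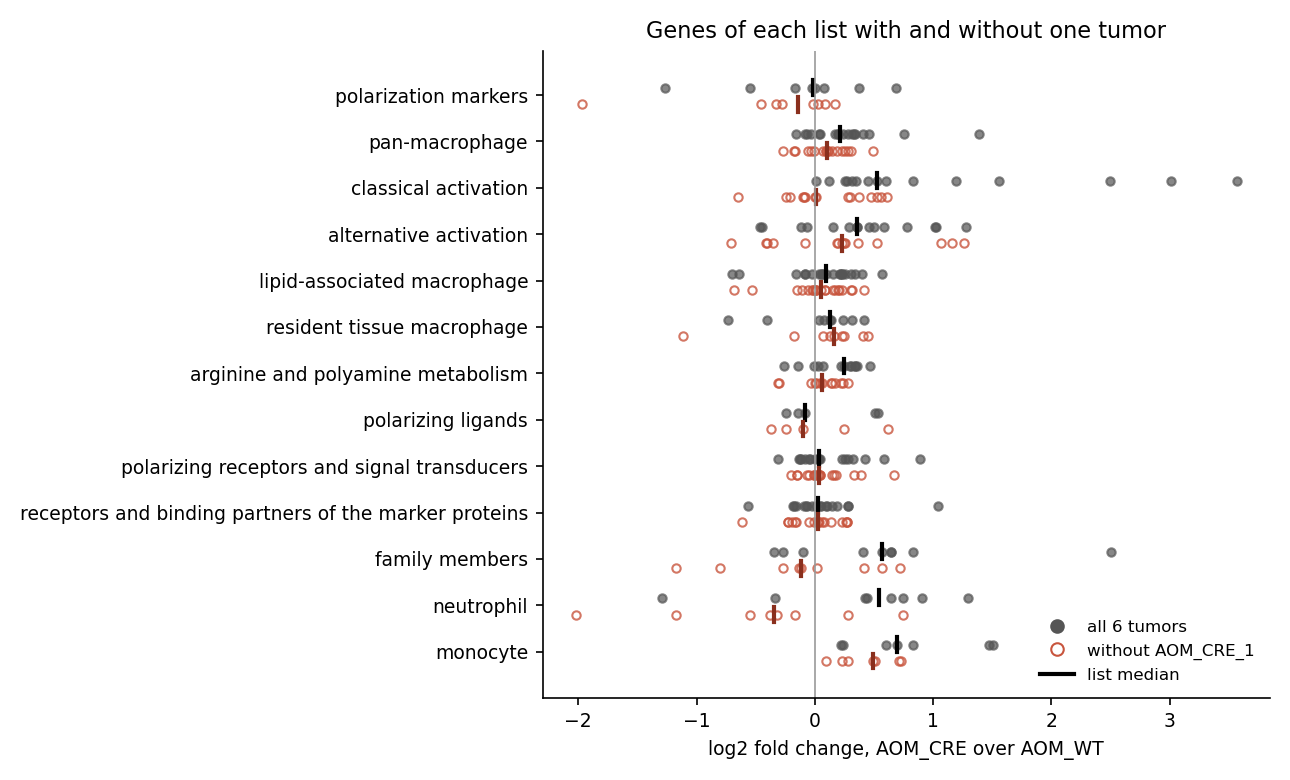
log2 fold change of Tmem173iΔmye over Tmem173 fl/fl (edgeR) for the tested genes of each list: filled points from all 6 tumors, open points without AOM_CRE_1, and vertical bars the list medians. The polarization markers centre near 0 (median -0.01), and the median of the classical activation genes moves from 0.52 to 0.01 without that tumor.

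Lists of other cell types were read as a guide to what the tumors held. For monocytes the median was 0.69 (7 of 7 above 0) and for T cells 0.78 (5 of 5). For neutrophils it was 0.54, and -0.35 without Tmem173iΔmye tumor 1. For mast cells it was 1.47, and -0.11 without Tmem173iΔmye tumor 3, which had a mast cell sum of 209 CPM against 30.7 to 60.3 CPM in the other 5 tumors. For B cells it was -0.96, and 1.36 without Tmem173 fl/fl tumor 1, which had a B cell sum of 116 CPM against 2.64 to 60.2 CPM in the others. The direction of these last 3 lists thus rested on 1 tumor each, and no gene of the lists passed both limits. Medians of the dendritic cell (0.32), colonic epithelium (0.13) and blood endothelium (0.28) lists kept their sign without each tumor, as did that of the eosinophil list (0.55), which rested on 2 tested genes. The lymphatic endothelium median of 0.14 was -0.19 without Tmem173iΔmye tumor 1 and -0.04 without Tmem173 fl/fl tumor 2, and the bone-like matrix median of 0.19 was -0.05 without Tmem173 fl/fl tumor 1 and -0.04 without tumor 2. These also had no gene past both limits.

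The genes with the lowest p of these lists had the following log2 fold changes, with adjusted p between 0.742 and 0.932 from edgeR. They were 1.30 for S100a9 and 0.74 for Csf3r (neutrophil), 1.47 for Ifitm6 and 1.51 for Ly6c2 (monocyte), 0.82 for Trac and 0.78 for Cd3g (T cell), and -1.24 for Ms4a1 and -1.27 for Pax5 (B cell). They were 1.63 for Cpa3 and 1.67 for Tpsb2 (mast cell), 0.89 for Ccr7 and 0.32 for Itgae (dendritic cell), and 1.47 for Prg2 and -0.36 for Il5ra (eosinophil). They were 0.35 for Vil1 and -0.43 for Lgr5 (colonic epithelium), 0.36 for Pecam1 and 0.37 for Plvap (blood endothelium), 0.41 for Pdpn and -0.30 for Prox1 (lymphatic endothelium), 0.44 for Sparc and 0.19 for Alpl (bone-like matrix), and 1.39 for Cd74 and 0.75 for Aif1 (pan-macrophage). Saa3 among genes of inflamed epithelium (median 0.14, and -0.03 without Tmem173 fl/fl tumor 3) and Dpt among fibroblast genes (median 0.30) passed both limits, at 1.67 and 1.08. Without Tmem173iΔmye tumor 1 they were 0.50 and 0.97. The next in these lists were Duoxa2 at 0.23 and Dcn at 0.32. The medians near 0, those of the markers, ligands, receptors and binding partners, also changed sign with single tumors left out. The part of the cell makeup in the marker levels was not tested.

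The genes nearest in profile to each marker over the 6 tumors were found by the root mean square difference of centred log2 (CPM + 0.1) values among 16425 genes. Those nearest to Gpnmb were Ms4a4a, a membrane protein of macrophages, Etfbkmt and Abca1, with differences of 0.08, 0.10 and 0.12 where the spread of Gpnmb itself was 0.40. Those nearest to Nos2 were Art2a-ps, Upp1, uridine phosphorylase, and Plaur, the urokinase receptor, with differences of 0.19, 0.20 and 0.23 against a spread of 0.73. Those nearest to Trem2 were Ccdc17, Spo11 and Chchd2-ps (0.10 to 0.11 against 0.53), to Apoe Ppic, Rtl8c and 2310079G19Rik (0.14 to 0.15 against 0.61), and to Spp1 Gm16174, Gm14403 and Rnf170-ps (0.14 to 0.20 against 0.74). Those nearest to Chil3 were Gm15494, Hba-a2 and Mmrn1 (0.47 to 0.70 against 1.52), to Arg1 Fuca1, Hip1r and Ufm1 (0.05 against 0.15), and to Mrc1 Ubqln4, Metap1 and Tfip11 (0.02 against 0.10). With 6 points and 16425 genes the distances are a description only.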

How the data were processed

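Total RNA of tumors was sequenced as polyA libraries. Per the labels, the authors used fastp, HISAT2 2.0.5 and featureCounts 1.5.0-p3 on GRCm38, and DESeq2 1.20.0. The deposited table holds read counts per gene and FPKM values of the same 6 tumors; columns of the authors' own comparison were not used. The test was edgeR 4.0.16 under R 4.3.3 (quasi-likelihood, TMM, group as the single term), run on the counts of genes whose mean FPKM reached 0.5. CPM used TMM library sizes. The SE was derived from the edgeR F statistic, as the size of the log2 fold change over the square root of F. Intervals are 95% from this SE and a t quantile. DESeq2 1.42.0 and limma 3.58.1 were alternatives, and the fits were tested on simulated data. Ratios used exact permutation tests. All markers are named. Of each list the 2 tested genes with the lowest p are named, and of each marker the 3 nearest profiles. Chil4 is named because it shares sequence with Chil3. Retnlb and Retnlg are named as relatives of Retnla, which shared no stretch. Further genes of the lists (Tyrobp, Lyve1, Reln, Ccl21a, S100a8, Ltf, Csf1, Tgfb1, Lyz2, Cxcl10, Ido1, Ifng, Il4, Il13 and those named as below the filter) were chosen after their values were seen. So were Cxcr2, Ly6g, Mmp9, Duox2, Lcn2, Nox1, Saa1, Reg3b and Reg3g. The markers and lists were chosen with earlier results of these data known. Counting was not stated to use strand. Floors are 3 counts per library.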

Additional observations from a re-analysis of the deposited data

How the results depend on the processing

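No marker passed both limits under any alternative run: DESeq2, median-of-ratios scaling, library totals without TMM, no filter, a filter at a mean FPKM of 1, limma on log2(FPKM + 1) and log2(FPKM + 0.1), the replicate block, Y-linked reads as a covariate, and leaving out each tumor. The number of genes past both limits, 349, was 872 with no filter, 136 with limma on log2(FPKM + 1), 211 with Y-linked reads as a covariate, and 218 to 636 leaving out each tumor (636 without Tmem173 fl/fl tumor 1, 218 without tumor 3). Of 120 fold changes of markers under alternatives, 109 kept their sign. Spp1, at 0.00, was -0.0074 with DESeq2 and -0.0070 with median-of-ratios scaling, and Mrc1 was 0.038 with Y-linked reads as a covariate. That covariate moved Chil3 from -1.27 to -0.42, Nos2 from 0.68 to 0.30 and Apoe from 0.37 to 0.20. Limma on log2(FPKM + 1) gave -0.59 for Chil3, -0.34 for Gpnmb, 0.37 for Nos2, 0.28 for Spp1 and 0.11 for Trem2, and on log2(FPKM + 0.1) 0.38 for Nos2, 0.28 for Spp1 and 0.22 for Trem2, which was 0.03 with library totals. Leaving out tumors gave -0.40 to 0.83 for Spp1, -0.33 to 1.01 for Nos2, -0.10 to 0.052 for Mrc1, -1.97 to 0.29 for Chil3 and -0.27 to 0.57 for Trem2. The Nos2 to Arg1 difference ranged from -0.021 to 0.87. Of 80 levels relative to pan-macrophage genes, 70 kept their sign: Trem2 was 0.19 relative to Csf1r alone, and leaving out tumors gave -0.56 to 0.77 for Spp1, -0.40 to 0.52 for Nos2, -0.33 to 0.31 for Trem2 and -0.10 to 0.60 for Apoe. The cause was not tested.

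Same-numbered tumors of the groups deviated together with correlations of 0.31, 0.01 and 0.15, and different-numbered tumors with -0.37 to 0.22. With 3 tumors a group these values cannot decide whether the numbers pair tumors. The labels do not state pairs, so none were taken in the main test. With the replicate block 377 genes passed both limits, no marker did (Nos2 0.37, Spp1 0.27 and Trem2 0.23), and the Nos2 to Arg1 difference stayed 0.55 (exact sign-flip p = 0.50).

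With 15329810 to 16533732 reads a tumor, Retnla and Cd163 were at the limit of detection, and the precision of the other markers is set by 3 tumors a group.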
